A study of Caenorhabditis elegans with 24 samples.

Results

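The mitochondrial ribosomal protein genes of *Caenorhabditis elegans* were followed through 8 two-colour array comparisons of wild-type and *pqm-1* mutant worms with and without the hypoxia mimetic CoCl2. Members were taken by name alone, as every gene whose symbol begins with mrpl (large subunit) or mrps (small subunit) followed by a number. The gene table of the reference annotation holds 71 such genes, of which 70 were on the array among 25616 gene names, 41 for the large and 29 for the small subunit. All 70 were tested at 6 h and 69 at 20 h, because *mrpl-50* gave a usable value on only 1 of the 3 arrays of untreated mutants against untreated wild type at 20 h; *mrpl-42* had no matched probe and is only named.

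The worms were N2 wild type and CQ528, which carries the loss-of-function allele *pqm-1(ok485)*, grown as hypochlorite-synchronised populations to early day 1 of adulthood and either left untreated or exposed to 5 mM CoCl2 for 6 h or 20 h. PQM-1 is a zinc-finger transcription factor, and CoCl2 stabilises the hypoxia-inducible factor HIF-1 in air. Each time point had 4 comparisons of 3 arrays (12 arrays per time, 24 in all on 7 slides): CoCl2 against untreated in wild type, CoCl2 against untreated in *pqm-1*, *pqm-1* against wild type untreated, and *pqm-1* against wild type with CoCl2. Whole populations were extracted, *pqm-1* mutants are described as slower to develop, and the methods call the replicates of the comparison between strains with CoCl2 biological. The labels do not say whether replicates were separate cultures, so p-values measure the spread between these arrays, which may be technical in part.

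The mitochondrial ribosome translates the few messages that the mitochondrial genome still encodes, all for core subunits of the respiratory chain. Its proteins are encoded in the nucleus, made by the cytosolic ribosome and imported. Some have counterparts in the bacterial ribosome, and others, such as the human counterparts of *mrps-22*, *mrps-23*, *mrps-26*, *mrps-27*, *mrps-31*, *mrps-33*, *mrps-35*, *mrpl-37*, *mrpl-39*, *mrpl-41*, *mrpl-44* and *mrpl-53*, are known only from mitochondria. In *C. elegans* the genes *mrps-5*, *mrpl-1*, *mrpl-2* and *mrpl-37* are known from RNA interference studies of lifespan.

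Values are log2 ratios of the first-named over the second-named sample, so that a value above 0 means more RNA in the first. A gene was called, or passed, where limma's adjusted p over all genes tested was below 0.01. The array values are amplified whole-animal RNA, in which fewer cells of a type and less RNA per cell cannot be told apart.

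The members were among the brighter genes of the array. All 97 of their probes lay above background in both channels on every array, and none was saturated. Their mean log2 intensity had a median of 11.6 at 6 h (range 7.48 to 13.2), and the median member stood at the 87.15 percentile of all genes at 6 h and at the 88 percentile at 20 h. The median SE of a member's ratio was 0.092 at 6 h and 0.084 at 20 h.

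Under loess, the members' ratios across the 8 comparisons were small, and most calls were lower. The lean below 0 lay in the comparisons of CoCl2 with untreated worms. Between untreated strains at 6 h, 58 of 70 members were above 0. Of 556 member-by-comparison tests, 44 passed (7.91%), 14 higher and 30 lower, where 17.8% of the same tests over all genes passed, and the calls came from 26 members, 17 of the large and 9 of the small subunit. Log2 ratios ran from -0.65 to 0.53, 8 of the 44 calls exceeded 0.5 in size before rounding, and none reached 1. The other 44 members passed in no comparison. All 9 calls in wild type after 20 h of CoCl2 were lower, against 5 higher and 11 lower in *pqm-1* at the same time, and the mutant with CoCl2 against wild type with CoCl2 gave 4 higher and 4 lower. No member passed in wild type after 6 h of CoCl2 or in untreated *pqm-1* against untreated wild type at 20 h.

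**Figure D1:**
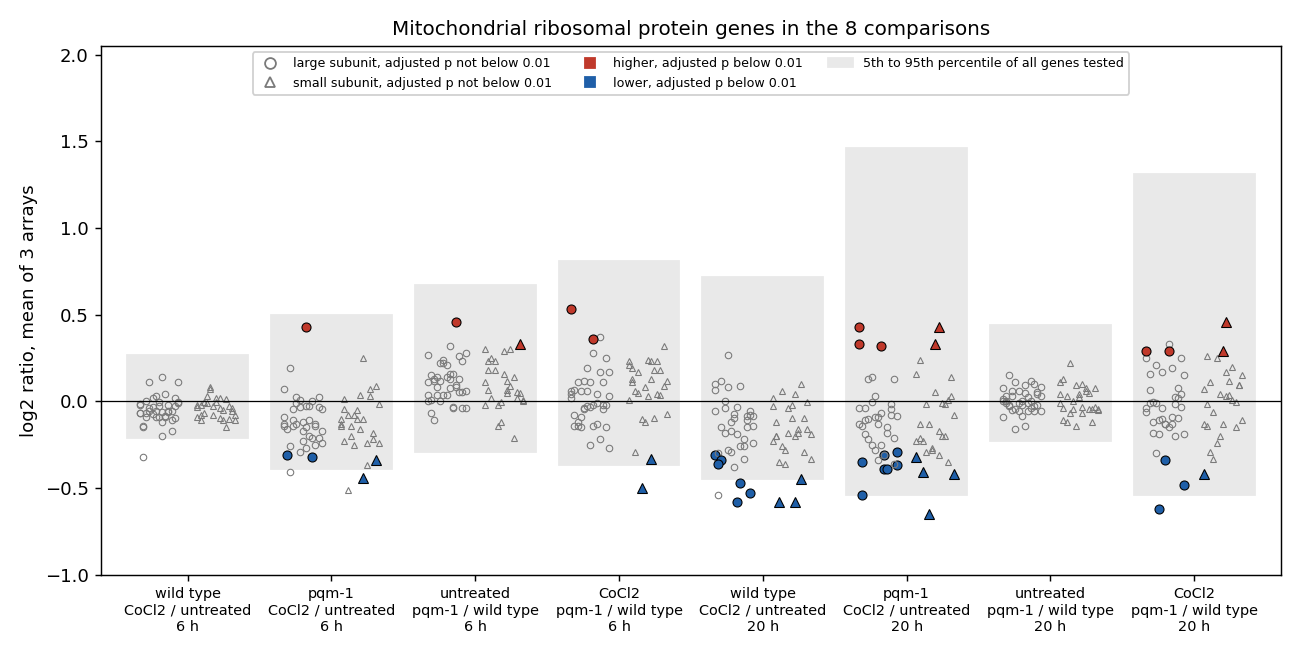
Log2 ratio (vertical axis, mean of 3 arrays) of every member in each of the 8 comparisons (horizontal axis), with circles for the large and triangles for the small subunit, filled where a member passed, over grey bars for the 5th to 95th percentile of all genes tested. After 20 h of CoCl2 most members lie below 0 in both strains, and 63 of 69 members in wild type and 67 of 69 in *pqm-1* stay inside the grey bar.

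The *pqm-1* probe was read first as a check of the labels. In untreated mutants it stood below wild type on all arrays at both times (log2 ratios -2.44, -2.27 and -2.10 at 6 h; -1.57, -1.36 and -1.43 at 20 h). With CoCl2 the difference between the strains did not pass (0.054, 0.1 and -0.27 at 6 h, limma adjusted p = 0.858; 0.26, 0.12 and 0.18 at 20 h, adjusted p = 0.359), while CoCl2 raised it in the mutant, by 2.69 at 6 h and 3.16 at 20 h, as in wild type, by 0.77 and 1.98. Whether the probe lies in the deleted part is not given in the sources used here, so it checks the labels of the untreated arrays only. The dyes were taken from the strain and treatment fields of each array, since the source names give the opposite sign on 11 of 24 arrays; the series' own value table had the sign of the fields on 24 of 24. With the fields' dyes, replicate arrays correlated at 0.674 to 0.961 over all genes.

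Arrays with reversed dyes ranked the members less alike at 6 h than at 20 h, except between untreated strains, where the ranges overlapped. At 6 h, arrays of the same orientation correlated over the members at 0.513 (wild type), 0.692 (*pqm-1*), 0.776 (untreated strains) and 0.88 (strains with CoCl2), whereas the array of opposite orientation, replicate 3 in each, correlated with them between -0.647 and 0.15. At 20 h the opposite-dye correlations were 0.266 to 0.405 in wild type, 0.476 to 0.529 in *pqm-1* and 0.459 to 0.562 between strains with CoCl2, but -0.261 to -0.0844 between untreated strains. Each comparison held 2 arrays of one orientation and 1 of the other. Within a 6 h comparison, dye orientation and replicate 3 cannot be told apart.

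In wild type, 6 h of CoCl2 left the members close to 0. None of 70 passed, where 4.24% of all genes did (2.56% higher, 1.68% lower); 1 had an unadjusted p under 0.05. The median was -0.051, the range -0.32 to 0.14, and 56 of 70 were below 0, but under median centring 16 of 70 were (median 0.045). Array medians were -0.069, -0.083 and 0.0058, and 2 members (2.86%) were above 0 on all 3 arrays and 9 (12.9%) below, against 16.2% and 15.4% of all genes.

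After 20 h of CoCl2 in wild type, 9 of 69 members (13%) fell and none rose, while 6.93% of all genes fell and 8.98% rose. The median of the members was -0.17 against about 0 over all genes, 59 of 69 were below 0, and 36 of 69 (52.2%) were below 0 on all 3 arrays, as were 25.1% of all genes. All 3 array medians were negative (-0.15, -0.14 and -0.25). The large subunit gave 6 of 40 lower (median -0.15) and the small 3 of 29 (median -0.18). The count was 3 without replicate 1, 5 without replicate 3 and 4 with slide as a fixed block, and 35 members had an unadjusted p under 0.05.

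Among the small-subunit genes, *mrps-26* read -0.55, -0.71 and -0.49 on replicates 1 to 3 (mean -0.58, SE 0.066, adjusted p = 4.59e-05). Its 3 arrays are close together, and it passed with each replicate left out. The gene *mrps-23* read -0.72, -0.26 and -0.77 (mean -0.58, SE 0.13, adjusted p = 0.00542), and *mrps-27* read -0.63, -0.25 and -0.45 (mean -0.45, SE 0.11, adjusted p = 0.00857). Both were least reduced on replicate 2, the array of opposite dye orientation.

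Of the large-subunit genes, *mrpl-23*, whose bacterial counterpart lines the exit of the peptide tunnel, read -0.85, -0.29 and -0.60 (mean -0.58, SE 0.11, adjusted p = 0.00273), and *mrpl-53* read -0.78, -0.24 and -0.58 (mean -0.53, SE 0.12, adjusted p = 0.00699). These also were nearest 0 on replicate 2. By contrast *mrpl-28* was nearest 0 on replicate 3, at -0.62, -0.58 and -0.22 (mean -0.47, SE 0.086, adjusted p = 0.00151), and its 4 probes ranged from -0.69 to -0.23. The gene *mrpl-44*, whose human counterpart has a ribonuclease III-like fold, read -0.48, -0.30 and -0.30 (mean -0.36, SE 0.057, adjusted p = 0.00059) and passed with each replicate left out. The remaining calls were *mrpl-13* at -0.33, -0.21 and -0.47 (mean -0.34, SE 0.062, adjusted p = 0.00172) and *mrpl-1*, of the stalk that guides deacylated tRNA out of the ribosome, at -0.29, -0.25 and -0.38 (mean -0.31, SE 0.068, adjusted p = 0.00594). Just outside the threshold, *mrpl-2*, near the peptidyl transferase centre, read -0.22, -0.23 and -0.42 (mean -0.29, SE 0.072, adjusted p = 0.0111).

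In *pqm-1*, 5 of 70 members passed after 6 h of CoCl2, 1 higher and 4 lower, against 6.07% of all genes higher and 4.83% lower (10.9% in all). The median was -0.13 with 57 of 70 below 0, and 30 members (42.9%) were below 0 on all 3 arrays, as were 26% of all genes. The array medians were -0.064, -0.095 and -0.25. The count fell to 2 without replicate 1, 2 without replicate 2 and 3 without replicate 3, and to 3 with slide as a fixed block. On replicate 2 the source name gives wild type for the Cy3 sample; the title and strain field, which give *pqm-1*, were followed.

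The 1 member that rose at 6 h was *mrpl-9*, which has a bacterial counterpart in the large subunit, at 0.51, 0.58 and 0.19 (mean 0.43, SE 0.09, adjusted p = 0.00527). The 4 that fell were *mrps-23* at -0.36, -0.35 and -0.59 (mean -0.44, SE 0.075, adjusted p = 0.0013), *mrps-33* at -0.23, -0.45 and -0.36 (mean -0.34, SE 0.07, adjusted p = 0.00438), *mrpl-32* at -0.18, -0.53 and -0.25 (mean -0.32, SE 0.066, adjusted p = 0.00464) and *mrpl-44* at -0.43, -0.14 and -0.34 (mean -0.31, SE 0.066, adjusted p = 0.00642). Each of the 5 had one sign on all arrays, with *mrps-23* the lowest. The lowest mean of all members did not pass and was that of *mrps-15* at -0.58, -0.69 and -0.25 (mean -0.51, SE 0.17, adjusted p = 0.0586).

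After 20 h of CoCl2 in *pqm-1*, 5 of 69 members rose and 11 fell (15.9% lower), where 22.8% of all genes rose and 12.4% fell (35.2% in all). The median was -0.13, 54 of 69 lay below 0, and 33 (47.8%) were below 0 on all 3 arrays against 34.3% of all genes. The share of lower calls was thus near the background, and higher calls were a smaller share of the members than of all genes. The large subunit had 3 higher and 7 lower of 40 (median -0.13) and the small 2 higher and 4 lower of 29 (median -0.17). Array medians were -0.24, -0.029 and -0.089, and the count was 7 without replicate 1, 8 without replicate 3 and 4 with slide as a fixed block.

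The 4 highest calls had SEs of 0.057 to 0.1. The gene *mrps-11*, from the platform of the small subunit in bacteria, read 0.48, 0.33 and 0.49 (mean 0.43, SE 0.06, adjusted p = 8.83e-05), and its 3 probes lay between 0.37 and 0.48. The gene *mrpl-22*, a protein of the exit tunnel wall in bacteria, read 0.30, 0.38 and 0.62 (mean 0.43, SE 0.1, adjusted p = 0.00449). The gene *mrps-5*, whose bacterial counterpart takes part in decoding accuracy, read 0.24, 0.36 and 0.38 (mean 0.33, SE 0.057, adjusted p = 0.000525). On the same arrays *mrpl-9* read 0.26, 0.38 and 0.35 (mean 0.33, SE 0.062, adjusted p = 0.000964). All arrays of these 4 genes were above 0, and *mrps-11*, *mrps-5* and *mrpl-9* passed with each replicate left out.

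The 4 lowest calls in *pqm-1* at 20 h had SEs of 0.066 to 0.13. The gene *mrps-31* read -0.91, -0.81 and -0.23 (mean -0.65, SE 0.12, adjusted p = 0.000728), *mrpl-24* read -0.77, -0.18 and -0.67 (mean -0.54, SE 0.13, adjusted p = 0.00615), and *mrps-35* read -0.46, -0.18 and -0.63 (mean -0.42, SE 0.094, adjusted p = 0.00279). The arrays nearest 0 were replicate 3 for *mrps-31* and replicate 2, of opposite dye orientation, for *mrpl-24* and *mrps-35*. The closest 3 arrays among them were those of *mrps-26* at -0.36, -0.49 and -0.38 (mean -0.41, SE 0.066, adjusted p = 0.000289), which passed with each replicate left out. The other 8 calls were *mrpl-41* (higher) and *mrpl-12*, *mrpl-20*, *mrpl-28*, *mrpl-32*, *mrpl-39*, *mrpl-44* and *mrps-22* (lower). For *mrpl-44* the 3 probes ran from -0.60 to -0.035, a gap of 0.56.

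**Figure D2:**
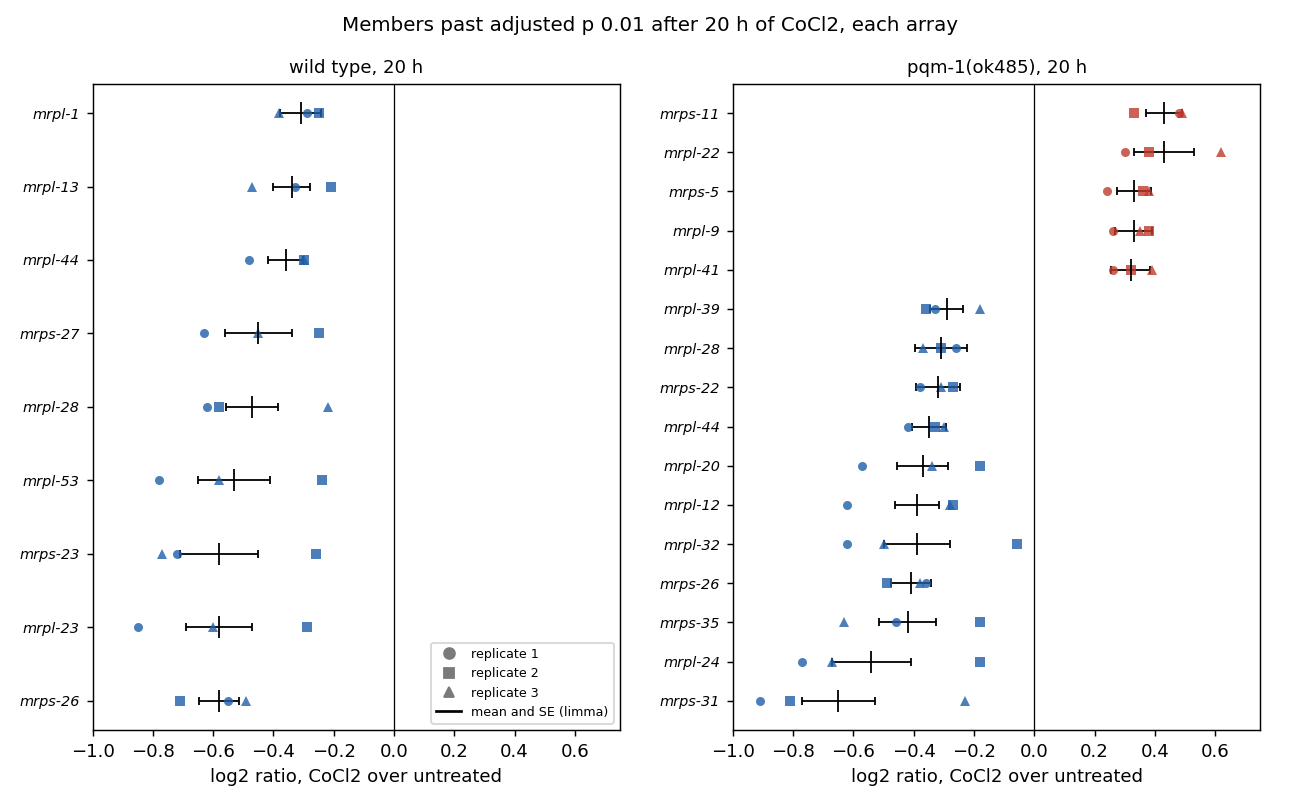
Log2 ratio of CoCl2 over untreated (horizontal axis) after 20 h for the members that passed in wild type (left) and in *pqm-1* (right), with a symbol for each of the 3 arrays and the mean and SE from limma in black. The 9 wild-type members are all below 0 on every array, and the *pqm-1* panel holds 5 above and 11 below.

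Set side by side, both strains after 20 h of CoCl2 shared 3 lower calls, *mrps-26*, *mrpl-28* and *mrpl-44*, and no higher call. These are 3 of 9 lower calls in wild type and 3 of 11 in *pqm-1*. Over all genes 6.93% were lower in wild type and 12.4% in *pqm-1*, and the share lower in both was not computed. Whether the other calls differ between strains was asked by a test of the difference. It passed for 2 of 69 members, both higher in *pqm-1*, where 8.86% of all genes passed (8.13% higher, 0.737% lower), and 11 members had an unadjusted p under 0.05. The median difference was 0.069, with 43 of 69 above 0.

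The larger of these differences was in *mrpl-41*. It read 0.26, 0.32 and 0.39 in *pqm-1* and -0.17, -0.084 and -0.31 in wild type (difference 0.51, SE 0.092, adjusted p = 0.00295). For *mrps-11* the arrays read 0.48, 0.33 and 0.49 in *pqm-1* and -0.045, 0.032 and 0.15 in wild type (difference 0.39, SE 0.084, adjusted p = 0.00841). In neither gene did the arrays of the strains overlap, and *mrpl-41* took opposite signs in them. Within slide 1, which held 2 *pqm-1* arrays and 1 wild-type array, the differences were 0.38 for *mrpl-41* and 0.37 for *mrps-11*. By the other path around the comparisons, the strain difference with CoCl2 minus that without, *mrpl-41* was 0.19 and no longer passed, while *mrps-11* was 0.49 and passed. With slide as a fixed block neither passed. The count of 2 was 0 without wild-type replicate 1, wild-type replicate 3 or *pqm-1* replicate 2 and 1 without *pqm-1* replicate 1 or 3. With each of the 6 arrays left out in turn, *mrps-11* lost its call in 6 of 6 cases and *mrpl-41* in 3 of 6.

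**Figure D3:**
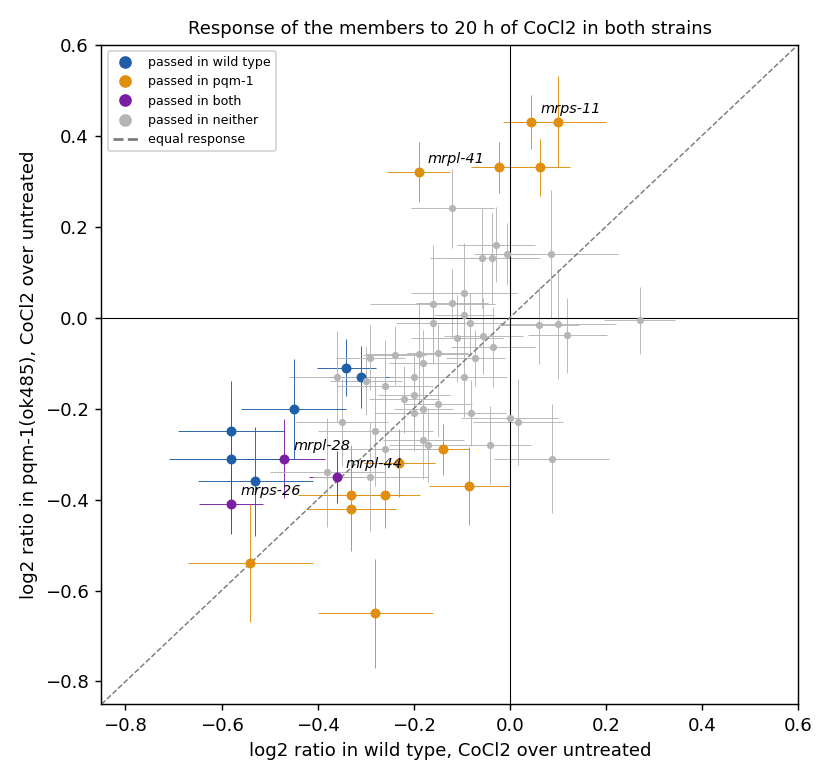
Log2 ratio of CoCl2 over untreated after 20 h in wild type (horizontal axis) and in *pqm-1* (vertical axis) for the 69 members, coloured by where they passed, with a dashed line of equal response. *mrps-26*, *mrpl-28* and *mrpl-44* passed in both strains, and *mrpl-41* and *mrps-11* lie above the line by 0.51 and 0.39.

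The corresponding difference at 6 h, taken as the strain difference with CoCl2 minus that without, passed for none of 70 members, where 3.05% of all genes passed (1.71% higher, 1.34% lower); 10 members had an unadjusted p under 0.05. The median was -0.05 and the range -0.54 to 0.27. With slides as a random block 7 members passed.

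Without CoCl2 at 6 h, 2 of 70 members passed, both higher in *pqm-1*, where 10.5% of all genes were higher and 3.24% lower (13.8% in all). The median was 0.091 and 58 of 70 were above 0. On all 3 arrays 25 of 69 (36.2%) were above 0, against 25.2% of all genes, and array medians were 0.085, 0.065 and 0.16. The calls were *mrpl-15*, at 0.41, 0.18 and 0.78 (mean 0.46, SE 0.11, adjusted p = 0.00867), and *mrps-33*, at 0.27, 0.23 and 0.49 (mean 0.33, SE 0.07, adjusted p = 0.00458). Both were highest on replicate 3, the array of opposite dye orientation, and the count was 0 without replicate 1, 1 without replicate 2 and 0 without replicate 3.

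At 20 h without CoCl2 the strains lay together. None of 69 members passed, where 4.35% of all genes did (3.1% higher, 1.26% lower), and 2 had an unadjusted p under 0.05. The range was -0.16 to 0.22, and 34 members were above and 35 below 0, but under median centring none was below 0 (median 0.16). The median size of the ratio was 0.048 against 0.074 over all genes.

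With CoCl2 at 6 h, 4 of 70 members passed between the strains, 2 higher and 2 lower in *pqm-1*, against 14.2% of all genes higher and 5.42% lower (19.6% in all). Higher were *mrpl-22* at 0.56, 0.76 and 0.25 (mean 0.53, SE 0.12, adjusted p = 0.00632) and *mrpl-9* at 0.25, 0.44 and 0.38 (mean 0.36, SE 0.09, adjusted p = 0.0097). Lower were *mrps-31* at -0.48, -0.72 and -0.30 (mean -0.50, SE 0.12, adjusted p = 0.00874) and *mrps-23* at -0.40, -0.42 and -0.16 (mean -0.33, SE 0.075, adjusted p = 0.00525). Both large-subunit calls were higher and both small-subunit calls lower, while the subunit medians ran the other way (-0.012 for the large and 0.086 for the small). Without replicate 1 or replicate 2 none passed, and without replicate 3 there were 2. None passed with slide as a fixed block, where the median was -0.037.

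With CoCl2 at 20 h, 4 of 69 members were higher in *pqm-1* and 4 lower, where 23.7% of all genes were higher and 13.6% lower (37.3% in all). The median was -0.0076, and the median size was 0.13 against 0.22 over all genes. On all 3 arrays 21 members (30.4%) were above 0 and 23 (33.3%) below, against 39.7% and 34.4% of all genes. The count was 3 without replicate 1 and 4 without replicate 2, and 0 with slide as a fixed block.

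The 4 higher genes had also risen with CoCl2 in *pqm-1* at this time. They were *mrps-11* at 0.50, 0.51 and 0.37 (mean 0.46, SE 0.06, adjusted p = 5.67e-05), *mrps-5* at 0.22, 0.39 and 0.25 (mean 0.29, SE 0.057, adjusted p = 0.00138), *mrpl-9* at 0.33, 0.42 and 0.10 (mean 0.29, SE 0.062, adjusted p = 0.00234) and *mrpl-41* at 0.43, 0.19 and 0.25 (mean 0.29, SE 0.065, adjusted p = 0.00292). These comparisons may share CoCl2-treated *pqm-1* RNA, so the repeat is not a second measurement. The 3 probes of *mrps-11* lay between 0.44 and 0.51.

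The 4 lower genes were *mrpl-36* at -0.68, -0.76 and -0.43 (mean -0.62, SE 0.14, adjusted p = 0.00265), *mrpl-20* at -0.58, -0.54 and -0.32 (mean -0.48, SE 0.085, adjusted p = 0.000801), *mrps-22* at -0.48, -0.32 and -0.44 (mean -0.42, SE 0.074, adjusted p = 0.000576) and *mrpl-21* at -0.45, -0.42 and -0.14 (mean -0.34, SE 0.089, adjusted p = 0.00796). All but *mrps-22* were nearest 0 on replicate 3, the array of opposite dye orientation. The call of *mrps-22* held with each replicate left out, and its 2 probes read -0.43 and -0.40.

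The 4 comparisons of a time form a loop, so the strain difference with CoCl2 can also be reached as the untreated strain difference plus the CoCl2 ratio in *pqm-1* minus that in wild type. At 6 h the direct and summed values differed by a median size of 0.07 and by no more than 0.3 in any member. At 20 h the median size was 0.099, and 6 members differed by more than 0.3. The gene *mrpl-36* was -0.62 directly and 0.011 by the sum, *mrps-22* -0.42 and -0.10, and *mrpl-41* 0.29 and 0.61. The lower call of *mrpl-36* is therefore not seen along the other path, whereas *mrps-22* keeps its sign at a smaller size and *mrpl-41* keeps its sign at a larger one.

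Between 6 h and 20 h the CoCl2 ratio changed in few members. In wild type 1 of 69 passed the test of 20 h minus 6 h, where 6.06% of all genes did (3.34% higher, 2.72% lower), and in *pqm-1* 1 of 69, against 16.9% (14.1% higher, 2.84% lower). Both calls were *mrps-26*. In wild type it read 0.0017, -0.097 and -0.10 at 6 h and -0.55, -0.71 and -0.49 at 20 h (difference -0.52, SE 0.079, adjusted p = 0.000145), and within slide 4, which held 3 arrays of 6 h and 1 of 20 h, the difference was -0.48. In *pqm-1* it read -0.069, -0.13 and -0.04 at 6 h and -0.36, -0.49 and -0.38 at 20 h (difference -0.33, SE 0.079, adjusted p = 0.00355). The arrays of the times did not overlap in either strain. In *pqm-1* no slide held both times, so time and slide cannot be told apart there. Without wild-type 20 h replicate 2 or 3 the wild-type count was 2 or 4, and with slide as a fixed block 0; the *pqm-1* count was 0 without 6 h replicate 1 or 20 h replicate 2 and 2 without 20 h replicate 1.

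Between strains without CoCl2 no member passed the time test, where 0.257% of all genes did (0.0779% higher, 0.179% lower), and 3 had an unadjusted p under 0.05. With CoCl2, 4 of 69 passed, all lower at 20 h, against 18.2% of all genes (11.9% higher, 6.31% lower). For *mrps-22* the 6 h arrays were 0.23, 0.29 and 0.10 and the difference was -0.62 (SE 0.13, adjusted p = 0.00143). For *mrpl-36* they were 0.092, 0.069 and 0.21 and the difference was -0.74 (SE 0.18, adjusted p = 0.00335), and for *mrpl-20* they were 0.16, -0.13 and 0.065 and the difference was -0.51 (SE 0.12, adjusted p = 0.00401). The smallest was *mrpl-39*, at 0.19, 0.27 and 0.057 at 6 h and -0.25, -0.18 and -0.14 at 20 h (difference -0.36, SE 0.077, adjusted p = 0.00135). Arrays of the times did not overlap in any of these 4 genes. The 6 h arrays were on slide 7 and the 20 h arrays on slide 3, so time and slide cannot be told apart. The count was 2 without 6 h replicate 1, 6 h replicate 3 or 20 h replicate 2, and 1 without 20 h replicate 1. By the other path around the loop the 20 h ratio of *mrpl-36* was 0.011, against -0.62 directly.

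**Figure D4:**
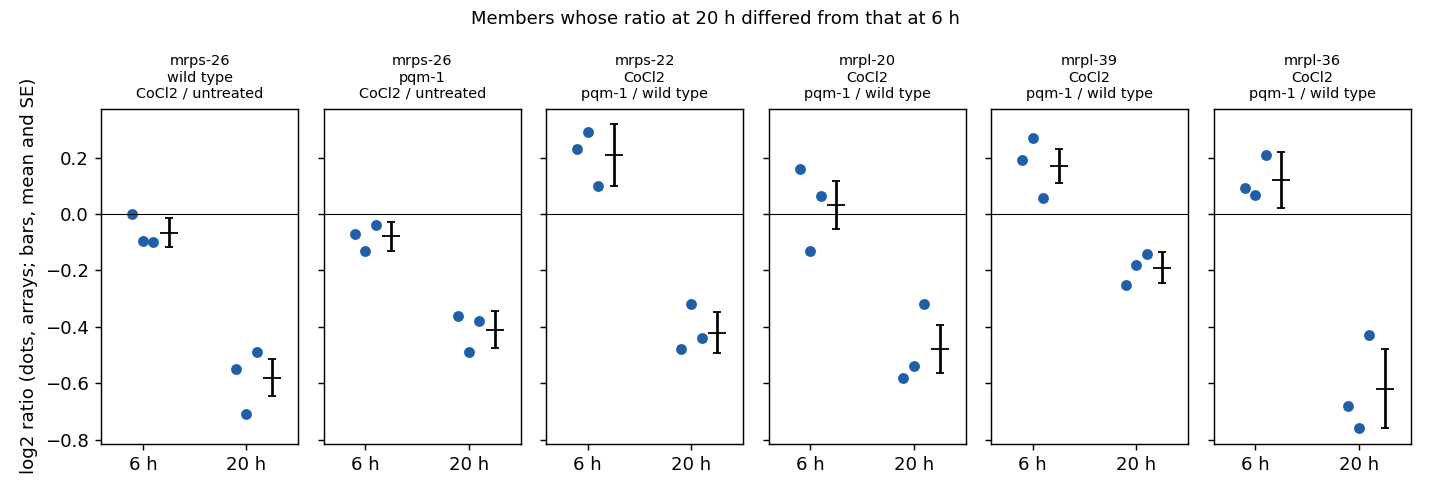
Log2 ratio (vertical axis) on each array (dots) at 6 h and 20 h, with mean and SE (bars), for the member and comparison pairs whose ratio differed between the times. In each panel the 20 h arrays lie below the 6 h arrays, with differences from -0.33 (*mrps-26* in *pqm-1*) to -0.74 (*mrpl-36* between strains with CoCl2). Only in the wild-type panel did a slide hold both times.

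Of the genes known from RNA interference and lifespan, *mrps-5* passed in 2 comparisons, *mrpl-1* in 1, and *mrpl-2* and *mrpl-37* in none. Besides its calls at 20 h, *mrps-5* was 0.11, 0.30 and 0.31 between strains with CoCl2 at 6 h (mean 0.24, adjusted p = 0.0302) and 0.16 without CoCl2 at 6 h (adjusted p = 0.168), and its other ratios lay between -0.023 and 0.038. The gene *mrpl-1* was -0.13 in *pqm-1* after 20 h of CoCl2 (adjusted p = 0.135), and -0.092 to 0.058 in the 6 comparisons not given here or above. For *mrpl-2*, the untreated mutant at 6 h stood at 0.29, 0.20 and 0.24 (mean 0.24, adjusted p = 0.189) and the mutant with CoCl2 at 0.19, while the others ranged from -0.088 to 0.058 apart from the wild-type value above. The gene *mrpl-37* read 0.22, 0.24 and 0.22 between untreated strains at 6 h (mean 0.23, adjusted p = 0.253), 0.25 with CoCl2 at 6 h (adjusted p = 0.17) and 0.25 with CoCl2 at 20 h (adjusted p = 0.0813), and -0.057 to 0.13 elsewhere. Its 3 untreated arrays at 6 h nearly coincide, but limma's SE also reflects the other arrays of that time.

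Over the 8 comparisons, *mrpl-9* had the highest median ratio, 0.21 (range -0.00038 to 0.43), and passed in 4, always higher. Next were *mrpl-41* at 0.19 (-0.20 to 0.32) and *mrpl-22* at 0.18 (-0.066 to 0.53), each passing in 2. The 4 calls of *mrpl-9* all had CoCl2-treated *pqm-1* as the first-named sample. Those of the same time may share RNA, so they are not 4 separate measurements. The lowest medians were those of *mrps-15* at -0.26 (-0.51 to 0.25), *mrps-31* at -0.25 (-0.65 to 0.072) and *mrpl-32* at -0.21 (-0.39 to 0.093). *mrps-15* passed in none; in wild type after 20 h of CoCl2 it read -0.10, -0.53 and -0.43 (mean -0.35, SE 0.096, adjusted p = 0.0181).

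Genes that work beside the mitochondrial ribosome were read on the same arrays. The list of 25 mitochondrial translation partners, mostly aminoacyl-tRNA synthetases and elongation factors, had 23 genes on the array. In wild type after 20 h of CoCl2, 4 of 22 tested fell and none rose (median -0.10), among them *nars-2*, an asparaginyl-tRNA synthetase, at -0.48 and *dap-3*, a GTPase of the small subunit outside the naming rule, at -0.43. In *pqm-1* at 20 h, 8 fell and 2 rose (median -0.13), with *nars-2* at -0.99, -0.92 and -0.88 (mean -0.93, adjusted p = 1.03e-05) and *dap-3* at -0.53, and *mars-2* at 0.41 and *ears-2* at 0.34 higher. In *pqm-1* at 6 h, 2 of 23 fell (median -0.098). Between strains 4 fell with CoCl2 at 6 h (median -0.028) and 3 at 20 h (median -0.086). None passed in the other 3 comparisons. The shares lower after 20 h of CoCl2 were 18.2% in wild type and 36.4% in *pqm-1*, against 6.93% and 12.4% of all genes. The share higher in *pqm-1* was 9.09% against 22.8%. In *pqm-1* at 6 h 8.7% were lower, against 4.83%. Between strains with CoCl2, 17.4% at 6 h and 13.6% at 20 h were lower, against 5.42% and 13.6%. Under loess, the partners' medians and those of the members were both below 0 in each of the 4 comparisons of CoCl2 with untreated worms. In wild type at 6 h they were -0.02 and -0.051, no gene of either list passed, and the members' median was 0.045 under median centring. The partners were not read under other scalings.

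The cytosolic ribosomal protein genes, which make up the ribosome outside mitochondria, differed in sign from the members after CoCl2 at 20 h under loess but not under median centring. After 20 h of CoCl2 their median was 0.20 in wild type (3 of 76 higher) and 0.14 in *pqm-1* (3 higher), where the members' were -0.17 and -0.13. In wild type and *pqm-1* at 6 h none passed (medians -0.025 and 0.017), and neither did any between untreated strains at 20 h (median 0.088). Between strains with CoCl2 at 20 h the cytosolic median was -0.36 (2 higher, 7 lower), with array medians of -0.24, -0.12 and -0.75 on arrays that held 678, 709 and 996 saturated probes. At 6 h, 9 of 77 cytosolic genes were higher in *pqm-1* untreated (11.7%, median 0.14) and 12 with CoCl2 (15.6%, median 0.17). These shares lay near the 10.5% and 14.2% of all genes that were higher. After 20 h of CoCl2 3.95% were higher in each strain, against 8.98% of all genes in wild type and 22.8% in *pqm-1*. Between strains with CoCl2 at 20 h 2.63% were higher and 9.21% lower, against 23.7% and 13.6%.

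The nuclear respiratory chain genes, whose complexes also hold the proteins that mitochondrial ribosomes make, differed from the members chiefly between strains with CoCl2 at 20 h, where 23 of 40 were higher in *pqm-1* (median 0.32) against 4 higher and 4 lower of the members. After 20 h of CoCl2 itself 3 of 40 rose in wild type (7.5%, median -0.02) and 5 in *pqm-1* (12.5%, median 0.042) under loess. Of all genes 8.98% and 22.8% rose. Under median centring the respiratory chain medians were -0.52 and -0.28, with 39 and 37 of 40 below 0. The respiratory chain genes were higher between untreated strains, 10 of 39 at 6 h (25.6%, median 0.19) and 4 of 40 at 20 h (10%, median 0.21). With CoCl2 at 6 h 6 were higher (15.4%, median 0.17). Of all genes 10.5%, 3.1% and 14.2% were higher in these comparisons. With CoCl2 at 20 h the respiratory chain share was 57.5%, against 23.7% of all genes. In *pqm-1* at 6 h of CoCl2, 4 were lower (10.3% against 4.83% of all genes, median -0.09). In wild type at 6 h none passed (median -0.082). These differences between lists were not tested.

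**Figure D5:**
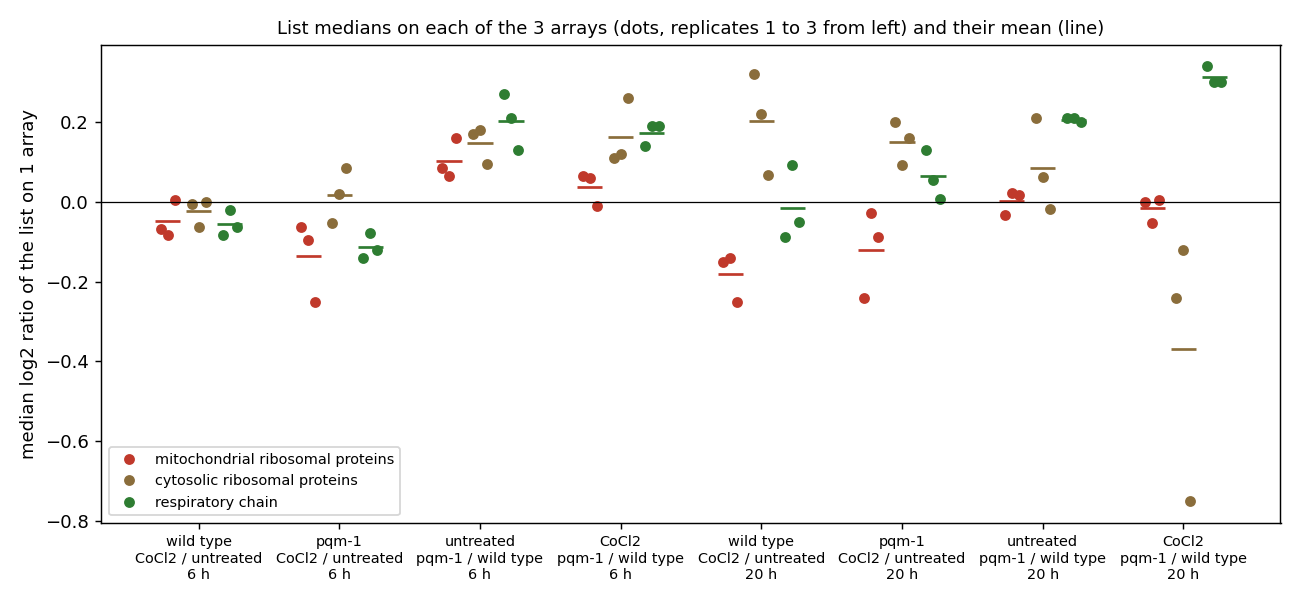
Median log2 ratio of a gene list on each array (vertical axis; dots for replicates 1 to 3 from left, line for their mean) in the 8 comparisons (horizontal axis), for the members, the cytosolic ribosomal proteins and the respiratory chain. The members' array medians lie between -0.25 and 0.16, below 0 on all 3 arrays in both strains after 20 h of CoCl2.

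Of the 13 mitochondrial import genes tested, 1 passed in each of 2 comparisons: *tin-44* fell in *pqm-1* after 20 h of CoCl2 (-0.29) and *tin-9.1* was higher in *pqm-1* with CoCl2 at 20 h (0.41), and the list median was -0.18 in wild type and -0.12 in *pqm-1* at 20 h. Each of these import calls was 7.69% of its list, against 12.4% of all genes lower and 23.7% higher in those comparisons. Among 11 mitochondrial stress genes, 2 rose and 2 fell in *pqm-1* after 20 h of CoCl2 (36.4% passed, against 35.2% of all genes). After 6 h in *pqm-1* 1 rose and 2 fell (27.3% against 10.9%). In wild type after 20 h 1 rose (9.09%, against 8.98% of all genes higher). The chaperonin *hsp-60* was -0.59 in *pqm-1* after 20 h of CoCl2 (adjusted p = 1.12e-05) and -0.45 after 6 h, and *dve-1*, a regulator of the mitochondrial unfolded protein response, was higher after 20 h in wild type (0.59) and *pqm-1* (0.69).

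Markers of some tissues shifted in the same comparisons. Of all genes, 8.98% rose and 6.93% fell in wild type after 20 h of CoCl2, and 22.8% and 12.4% in *pqm-1*. Between untreated strains 10.5% were higher at 6 h and 3.1% at 20 h. Between strains with CoCl2 5.42% were lower at 6 h and 13.6% at 20 h. Major sperm protein genes had medians of 1.86 in wild type (22 of 26 higher) and 2.74 in *pqm-1* (26 of 26) after 20 h of CoCl2 (array medians 1.46, 3.14 and 0.98, and 2.81, 2.59 and 2.72), and of 3.34 between untreated strains at 6 h (27 of 27) and 2.34 at 20 h (24 of 26). Oocyte and germ-line genes were lower in *pqm-1* after 20 h of CoCl2 (14 of 21, median -0.51) and in the strains with CoCl2 at 6 h (12 of 22, median -0.39) and 20 h (11 of 21, median -0.39), but in wild type after 20 h of CoCl2 their median was -0.085 with 2 higher, and that of cuticle collagens was -0.012. Of the 11 genes of the intestinal list, 7 were lower and 2 higher in wild type after 20 h of CoCl2 (median -1.13, array medians -1.03, -0.90 and -1.35). In *pqm-1* 6 were lower and 4 higher (median -0.39). That list includes vitellogenin (yolk protein) genes, whose RNA the paper reports as lower with CoCl2 and with loss of *pqm-1*. A change in yolk genes and a change in the amount of intestine cannot be told apart in its median. Cuticle collagens were higher between untreated strains at 6 h (76 of 147, median 0.49), as were body muscle genes (5 of 6, median 0.62). At 20 h between untreated strains none of the 69 members passed under loess, but under median centring none was below 0 (median 0.16). The part of these tissue shifts in the members' ratios was not tested.

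Scaling set the level but mostly not the sign of the members after CoCl2. With each array's ratios centred on their median in place of loess, the members' median was -0.68 in wild type and -0.48 in *pqm-1* at 20 h. In wild type 68 of 69 were then below 0. The cytosolic median changed sign to -0.28 and -0.13, and the respiratory chain median was -0.52 and -0.28. With the scanner software's own ratios the members' medians were -0.23 and -0.25. Between strains with CoCl2 it changed from -0.0076 to 0.27 at 20 h.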

How the data were processed

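Whole-animal RNA was hybridised to 24 two-colour Agilent arrays, and the authors deposited scanner output of Feature Extraction 12.0.2.2 (array design on ce6/WS190). The deposited files hold spot intensity per channel and the scanner's log10 ratio; the series' value table, deposited by the authors, holds log2 ratios. Median intensities were background-corrected (normexp, offset 50) and normalised by loess within each array by limma 3.58.1 in R 4.3.3, with controls given no weight. Controls and outlier spots were then removed, and values were averaged per probe and then per gene. Probes above background in at least 1 channel on all arrays of some comparison were kept, and genes needed values on 2 of 3 arrays per comparison. Probes were named through the RefSeq gene table. The 12 arrays of a time were fitted together (8 residual degrees of freedom), times in a fit of 24 (16). The study's methods use SAM; limma was used here at adjusted p below 0.01 (Benjamini-Hochberg over all genes) because SAM's sign flips have few values with 3 arrays. The number of arrays limits the precision. The fit was tested on simulated data.

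Named are all members passing a comparison (the 4 highest and 4 lowest where over 10 passed), 4 genes known from lifespan studies, the 3 highest and 3 lowest medians, and at most the 2 highest and 2 lowest calls of a comparator list. Members and lists were chosen with earlier results of these data known. Probes of one gene were averaged.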

Additional observations from a re-analysis of the deposited data

Results flagged for a closer look

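The following 8 results concern a difference between strains or times that passed its own test (limma, adjusted p below 0.01). The response of *mrpl-41* to 20 h of CoCl2 was higher in *pqm-1* than in wild type by 0.51, and that of *mrps-11* by 0.39. Taken from the other pair of comparisons these were 0.19, which did not pass, and 0.49, which passed. With each array left out in turn, *mrps-11* lost its call in 6 of 6 cases and *mrpl-41* in 3 of 6. The CoCl2 ratio of *mrps-26* was lower at 20 h than at 6 h in wild type (difference -0.52) and in *pqm-1* (difference -0.33). Between strains with CoCl2, the ratio at 20 h minus that at 6 h was -0.74 for *mrpl-36*, -0.62 for *mrps-22*, -0.51 for *mrpl-20* and -0.36 for *mrpl-39*. At 20 h the direct strain ratio and that by the other path were -0.62 and 0.011 for *mrpl-36*, and -0.42 and -0.10 for *mrps-22*. For *mrpl-20* they were -0.48 and -0.34, and for *mrpl-39* -0.19 and -0.12. With each array left out in turn, *mrpl-36* and *mrpl-20* each lost the call in 4 of 6 cases, *mrpl-39* in 2 and *mrps-22* in 0. For these genes, and for *mrps-26* in *pqm-1*, no slide held both times, so time and slide cannot be told apart. Groups of 3 arrays were too small to look for single arrays far from the rest.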

How the results depend on the processing

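Over 44 called member ratios and differences, 767 alternative values were computed: 442 kept direction and call, 301 kept direction but lost the call, and 24 changed sign. In 42 of the 44 the direction held in every alternative except the dyes of the source names. Calls of *mrps-26* held in 15 of 17 alternatives in each strain at 20 h.

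Counts below are members past the threshold. At adjusted p below 0.05 they were 10 (*pqm-1*, 6 h), 24 (wild type, 20 h), 26 (*pqm-1*, 20 h), 5 and 11 (strains at 6 h, untreated and with CoCl2), 14 (strains with CoCl2, 20 h), 1 (strain difference, 6 h) and 4 each for the time difference of CoCl2 in wild type and *pqm-1*. With a dye term they were 12 (*pqm-1*, 6 h), 5 (untreated strains, 6 h), 15 (wild type, 20 h) and 3 (time, wild type). With dyes of the source names no member and no gene of the whole array passed in any comparison, and medians were -0.083 (wild type, 20 h), 0.028 (*pqm-1*, 20 h), 0.013 and -0.028 (strains at 6 h, untreated and with CoCl2), -0.025 and 0.044 (time difference between strains, untreated and with CoCl2). Values that then changed sign were, in *pqm-1* at 6 h, *mrps-23* 0.039, *mrpl-44* 0.078, *mrpl-9* -0.30, *mrps-33* 0.11 and *mrpl-32* 0.15; between untreated strains at 6 h, *mrpl-15* -0.061; between strains with CoCl2 at 6 h, *mrps-23* 0.22, *mrps-31* 0.30, *mrpl-9* -0.11 and *mrpl-22* -0.36; at 20 h, *mrpl-41* -0.12, *mrps-11* -0.21, *mrpl-21* 0.24, *mrps-22* 0.12, *mrps-5* -0.12, *mrpl-20* 0.27, *mrpl-9* -0.22 and *mrpl-36* 0.34; and in its time difference *mrps-22* 0.26, *mrpl-20* 0.25, *mrpl-39* 0.23 and *mrpl-36* 0.32.

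With median centring, medians were 0.045 and -0.68 (wild type, 6 h and 20 h), -0.45 and -0.48 (*pqm-1*), 0.16 (untreated strains, 20 h), 0.27 (strains with CoCl2, 20 h), 0.22 (strain difference, 20 h), -0.72, 0.11 and 0.24 (time difference in wild type, untreated strains and strains with CoCl2). Counts were 6 in *pqm-1* at 20 h and 0 in *pqm-1* at 6 h, both strain comparisons at 6 h, strains with CoCl2 at 20 h, the strain difference at 20 h and all time differences; *mrps-5* (-0.066) and *mrpl-9* (-0.073) changed sign in *pqm-1* at 20 h. With the scanner's ratios, and alike with the series' value table, medians were 0.0045 and -0.014 (strains at 6 h, untreated and with CoCl2), -0.25 (*pqm-1*, 20 h), -0.031 and -0.13 (strains at 20 h), and counts 1 (*pqm-1*, 6 h), 1 and 0 (strains, 6 h), 5 (strains with CoCl2, 20 h), 0 (strain difference, 20 h), 2, 0 and 2 (time difference in wild type, *pqm-1* and strains with CoCl2). Without an offset, counts were 1 (*pqm-1*, 6 h), 0 and 1 (strains, 6 h), 6 (*pqm-1*, 20 h), 4 (strains with CoCl2, 20 h), 0 (strain difference, 20 h) and 0 for the time difference in *pqm-1* and between strains with CoCl2. Without the filter on dim probes, counts between strains at 6 h were 1 untreated and 2 with CoCl2; a strict filter, and likewise the other pair of comparisons, left 1 for the strain difference at 20 h (*mrps-11* in the latter).

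Fitting only the arrays compared gave 0 in *pqm-1* and both strain comparisons at 6 h, wild type at 20 h, the strain difference at 20 h and the time difference in either strain, and 2 (*pqm-1*, 20 h), 5 (strains with CoCl2, 20 h) and 2 (its time difference); fewer arrays leave fewer degrees of freedom. Slide as a fixed block gave 3 (*pqm-1*, 6 h), 0 (strains with CoCl2, 6 h; median -0.037), 4 and 4 (wild type and *pqm-1*, 20 h), 0 (strains with CoCl2, 20 h; median -0.11), 0 (strain difference, 20 h), 0 (time, wild type) and a median of 0.13 between untreated strains at 20 h; it was not run for wild type and untreated strains at 6 h, the strain difference at 6 h and the other 3 time differences, where slide and group cannot be told apart. Slide as a random block gave 1 (wild type, 6 h), 8 (*pqm-1*, 6 h), 9 and 20 (strains, 6 h), 7 (strain difference, 6 h), 5 (wild type, 20 h) and 5 (strains with CoCl2, 20 h). Replicate numbers did not pair the arrays over the study: same-number correlations ran from -0.67 to 0.419, and all were over 0.1 in 2 of 12 pairs of comparisons, wild type CoCl2 with untreated strains at 6 h (0.226 to 0.381) and *pqm-1* CoCl2 with strains with CoCl2 at 6 h (0.217 to 0.406). With the number as a block the counts were 2 (*pqm-1*, 6 h), 0 and 0 (strains, 6 h) and 1 (strain difference, 20 h), and otherwise stayed within 1.5 times.

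Leaving out each replicate gave ranges of 0 to 0 and 3 to 8 (wild type, 6 h and 20 h), 2 to 3 and 7 to 17 (*pqm-1*), 0 to 1 and 0 to 0 (untreated strains), 0 to 2 and 3 to 7 (strains with CoCl2), 0 to 0 and 0 to 2 (strain difference), and 1 to 4, 0 to 2, 0 to 0 and 1 to 4 for the time differences in wild type, *pqm-1*, untreated strains and strains with CoCl2. Medians ranged from -0.0096 to 0.032 between untreated strains and from -0.054 to 0.021 between strains with CoCl2 at 20 h. The cause of these changes was not tested unless stated.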
